A study of Mus musculus with 12 samples.

Results

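CD4 T cells of 2 kinds from the lymph nodes of immunized mice were compared, follicular helper T cells with little S1pr2 reporter signal (Venus-low Tfh, 3 arrays) and T helper cells with little PD1 (PD1-low Th, 2 arrays). These 5 arrays were chosen by their sample titles from the 12 arrays of the study. In Venus-low Tfh cells the genes of the helper cytokines interleukin 21 and interleukin 4 stood far above the PD1-low level. Of the measured genes, 77 of 80 of mitosis and 52 of 58 of DNA replication passed the test as higher, by 0.38 to 8.13 and 0.33 to 6.86 log2 units. Genes of resting naive T cells were lower, 20 of 25 of them past the test, led by Igfbp4. Over all genes tested, 20.2% passed as higher and 16.9% as lower. All lymph node samples came from S1pr2V/+ mice, in which the fluorescent protein Venus reports on S1pr2, which encodes a receptor for the lipid sphingosine-1-phosphate. The mice had received CGG in CFA under the skin 10 days before sorting. Venus-low Tfh cells were gated as CD4+, Venus-low, CXCR5+, PD1-high and CD44-high, and PD1-low Th cells as CD4+, CXCR5-low, PD1-low and CD44-high, both negative for the markers of a dump channel. The labels state no Venus gate for the PD1-low cells. Levels in the other 3 groups are given beside some genes: Venus-high Tfh cells (3 arrays), CXCR5+ PD1-intermediate Th cells (2 arrays) and naive CD44-low CD62L-high CD4 T cells from spleen (2 arrays). The series text names immunized or control mice as sources without saying which gave the naive cells.

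Follicular helper T cells enter B cell follicles by way of the chemokine receptor CXCR5 and lose CCR7, the receptor that holds T cells in the T zone. There they give B cells interleukin 21, interleukin 4 and CD40 ligand, under the control of the transcriptional repressor BCL6. CD44 marks T cells that have met antigen, and PD1 is an inhibitory receptor that Tfh cells carry at a high level. Each array held pooled cells, from 4 mice on most arrays and from 2 on the naive arrays. Venus-high array 2, Venus-low array 2 and PD1-low array 1 held cells of 6 mice each. For each sample 20 ng of total RNA was amplified. The cells were sorted mixtures, so fewer cells of a type and less RNA per cell cannot be told apart.

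The arrays fell into 3 sets by the distribution of their values, which the labels do not name. Venus-low array 2 lay in a set with PD1-low array 1 (set 2), and Venus-low array 3 in a set with PD1-low array 2 (set 3). Venus-low array 1 lay in set 1, which held no PD1-low array. The 75% quantiles of the arrays were 8.50 to 8.55, 8.68 to 8.76 and 9.39 to 9.42 in sets 1, 2 and 3. Displaced probe sets, whose values in 1 set differed by over 3 log2 units from those of both others in 1 direction, numbered 3315 in set 2, against 542 in set 1 and 234 in set 3. Those of set 2 measured 507 of the 9893 genes tested, which are left out of the lists and of the named genes, and the cause of their displacement was not tested. Unless said otherwise, differences are Venus-low minus PD1-low on the log2 scale, ± SE, from a limma fit of all 12 arrays with the array set as a term. A gene is called at an adjusted p under 0.05. Measured members of a list are those that reached log2 5 on at least 2 of the 12 arrays and were not displaced. Genes low in 1 group can pass through the arrays where they are high, and genes low throughout are left out. "Without the set term" refers to the same fit without that term, and each array is named by its group and number. Beside a count of 0 stands the number of genes with an unadjusted limma p under 0.05 in that direction in parentheses.

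The gate genes, which the sort itself used, served to check the labels. Cxcr5 read 13.71, 13.14 and 13.77 on the Venus-low arrays and 5.18 and 6.75 on the PD1-low arrays. Pdcd1, the gene of PD1, read 13.87, 13.85 and 14.39 against 6.83 and 7.35. S1pr2 read 10.68, 9.86 and 10.21 against 7.58 and 7.23, a difference of 2.82 ± 0.40 in the transcript. Cd4 (difference 0.30 ± 0.11, adjusted p = 0.0667) and the invariant chains Cd3d, Cd3e and Cd3g, which differed by 0.02, -0.02 and -0.02, were near equal in both groups. Cd44 differed by 1.33 ± 0.16 with overlapping arrays, and was not called without the set term (adjusted p = 0.586). On PD1-low arrays Cd44 read 11.37 and 12.18 and on the naive arrays 6.56 and 7.46, a difference that passed (3.87 ± 0.18, adjusted p = 9.77e-04).

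Of the 9893 genes tested, 2002 (20.2%) were called higher in Venus-low Tfh and 1667 (16.9%) lower, 3669 (37.1%) in all. Without the set term the counts were 603 (6.1%) and 390 (3.94%), and the median SE over genes was 0.449 against 0.174 with it. Without PD1-low array 1 the counts were 1223 (12.4%) and 877 (8.86%), and without PD1-low array 2 they were 1357 (13.7%) and 1050 (10.6%). They were 1877 (19%) and 1443 (14.6%) without Venus-low array 1, 1571 (15.9%) and 1311 (13.3%) without array 2 and 1353 (13.7%) and 1055 (10.7%) without array 3. The whole of set 2 left out, a choice made after seeing the data, gave 1782 (18%) and 1333 (13.5%), 3115 (31.5%) in all. The median difference over all genes was -0.0102, and -0.1 without the set term. Among the 9386 genes not measured by a displaced probe set, 1990 (21.2%) were higher and 1645 (17.5%) lower, the shares to set beside each list count below. Large differences lay mostly on 1 side: 458 of these genes were called higher by at least 3 log2 units and 110 lower, and 60 were higher by at least 7 and 6 lower. Of those called higher, 369 read below log2 5 on both PD1-low arrays, and of those called lower 113 read below it on all 3 Venus-low arrays.

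The 2 sets that held both groups gave differences from separate arrays. Across the 9386 genes these correlated with a Pearson r of 0.899 and a Spearman rho of 0.848, where genes are not independent replicates. Of 471 genes at least 3 log2 units higher within set 2, 462 (98.1%) were at least 1 higher within set 3, against 13.6% of all genes. Of 103 genes lower by that much within set 2, 99 (96.1%) were at least 1 lower within set 3, against 8.92% of all genes.

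**Figure D1:**
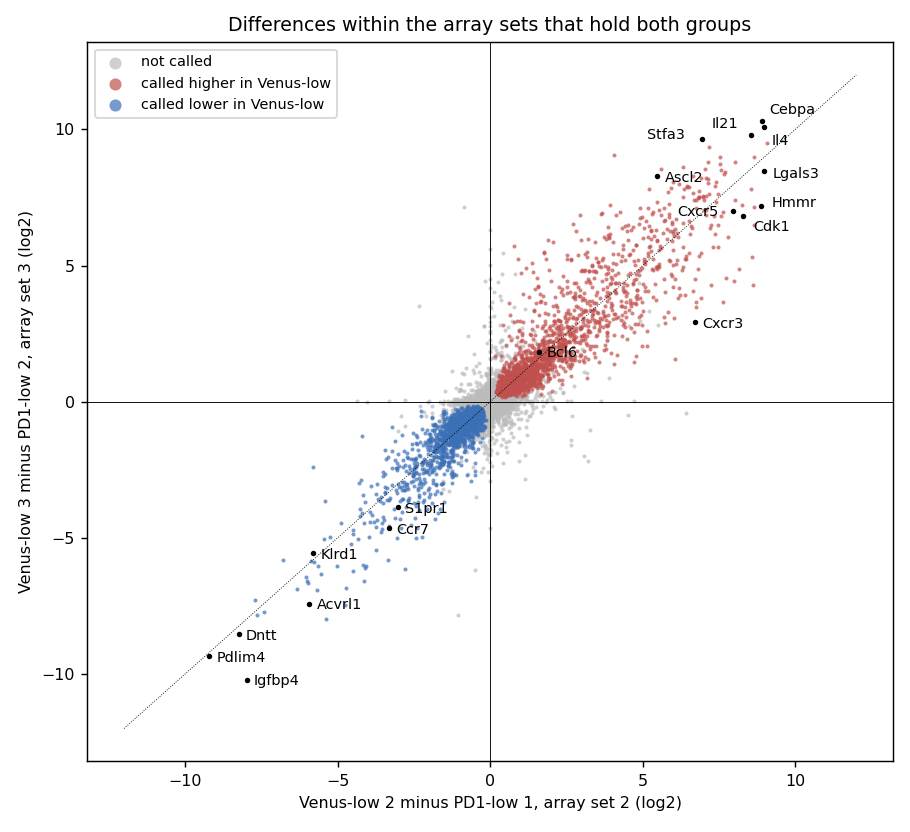
Each point is 1 gene, with Venus-low array 2 minus PD1-low array 1 on the x axis and Venus-low array 3 minus PD1-low array 2 on the y axis, both in log2 units; the dotted line marks equal differences. Cebpa, Il4 and Il21 lie at the upper right end and Igfbp4 and Pdlim4 at the lower left, while Cxcr3 lies below the line, with 6.73 in set 2 and 2.91 in set 3.

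Il21, the main cytokine of Tfh cells, read 10.63, 10.95 and 12.47 on the Venus-low arrays and 2.39 and 2.68 on the PD1-low arrays. The groups were far apart on every array, and Venus-low cells exceeded PD1-low cells by at least 81.8-fold (difference 9.14 ± 0.36, adjusted p = 1.65e-05). Such "at least" folds take log2 5 as the level of a group that read below it on every array. They hold for the chosen probe set of a gene. A second Il21 probe set, with a mean level of 5.58, lay higher by a mean of 3.35 log2 units within sets 2 and 3. Il4, a cytokine of germinal centre Tfh cells and of Th2 cells, read 10.64, 10.98 and 12.30 against 2.01 and 2.22, at least 79.3-fold higher (9.34 ± 0.69, adjusted p = 1.45e-04). Here too no PD1-low array came near the Venus-low arrays. Ifng, the main Th1 cytokine, read 7.01, 8.50 and 9.70 against 2.81 and 2.59 and rose by 6.30 ± 0.67 (at least 10.6-fold, adjusted p = 6.23e-04), with the lowest Venus-low value on array 1. Tgfb3, a transforming growth factor, read 8.75, 7.35 and 8.09 against 2.09 and 2.11 and was at least 8.37-fold higher. Of 23 helper cytokine genes on the array, 11 passed the filter on low values, and 7 of these rose and 2 fell, with a median of 4.25. Il21, Il4, Ifng and Tgfb3 read below log2 5 on both PD1-low arrays and passed the filter through other arrays. Without the set term 5 rose and 0 (1 unadjusted) fell. The other rises were Csf1 (4.37), a growth factor of macrophages, Ccl5 (4.25), a chemokine, and Tgfb1 (0.48). The falls were Lta (-0.65) and Ltb (-1.04), which form lymphotoxin, and 1 of the 2 passed without Venus-low array 1 or 3 or either PD1-low array. Il2 differed by 1.89 without passing. The genes Il10, Il17a, Il5, Il13, Il9, Il3, Csf2, Il6, Cxcl13, Ccl3, Ccl4 and Xcl1 did not pass this filter, so no direction is given for them.

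**Figure D2:**
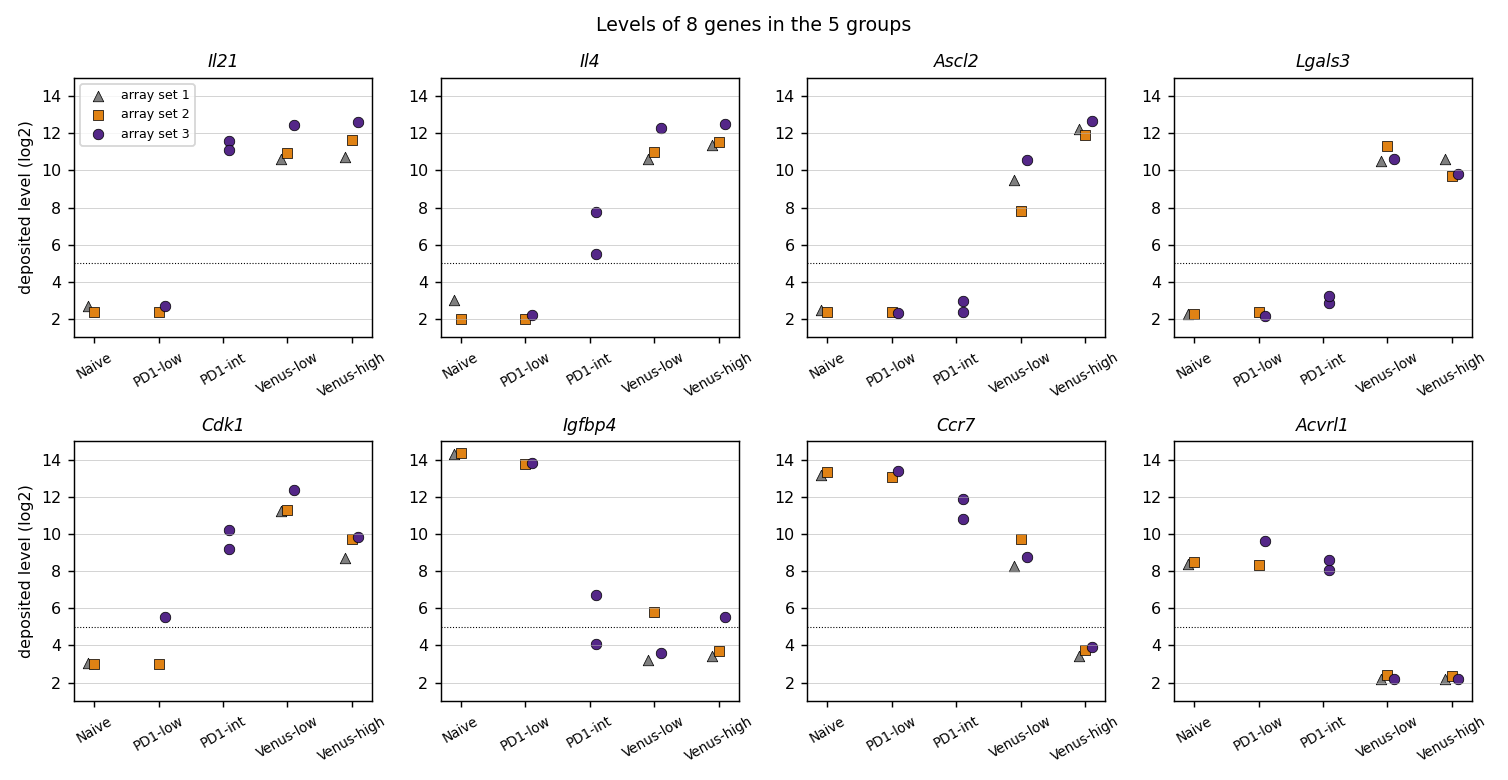
Deposited log2 level of 8 genes on each of the 12 arrays, by group on the x axis, with the array set as colour and shape and the dotted line at the filter of log2 5. Il21 and Cdk1 are high in PD1-intermediate and both Tfh groups, Ascl2 and Lgals3 in the Tfh groups, while Igfbp4 and Ccr7 are high on the naive and PD1-low arrays.

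Among 22 measured genes of a list of Tfh transcription factors, 15 rose and 2 fell, with a median difference of 1.48, and 10 rose and 0 (2 unadjusted) fell without the set term. Bcl6, the repressor that directs the Tfh fate, read 14.45, 13.82 and 14.28 on Venus-low arrays and 12.20 and 12.44 on PD1-low arrays, 3.5-fold higher (1.81 ± 0.18, adjusted p = 4.56e-04). It was thus well detected in both groups, and the arrays did not overlap. Ascl2, a factor that induces CXCR5, read 9.47, 7.83 and 10.58 against 2.35 and 2.30 and was at least 19.6-fold higher (6.99 ± 0.56, adjusted p = 1.95e-04). Cebpa, a basic leucine zipper factor best known from myeloid cells, had the largest rise of all named genes. It read 11.70, 12.88 and 13.40 against 3.98 and 3.10, at least 203-fold higher (9.62 ± 0.33, adjusted p = 1.01e-05). Bhlhe40, a basic helix-loop-helix repressor, rose by 5.58 ± 0.38, Maf, which drives Il21 and Il4, by 2.95 ± 0.44, and Batf, a partner of IRF4 at AP-1 sites, by 2.26 ± 0.19. The list also holds Sostdc1, a secreted antagonist of BMP and Wnt signals and no transcription factor, which rose by 5.83 ± 0.48 and was at least 24.6-fold higher. The falls were Bach2, a repressor of effector programmes (-4.06 ± 0.44; adjusted p = 0.0675 without the set term), and Lef1 (-0.77), a partner of TCF1. Bach2 read 8.94, 6.97 and 8.87 on Venus-low arrays and 11.25 and 12.79 on PD1-low arrays, with no overlap.

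Of 13 measured genes listed as antagonists of the Tfh fate, 4 rose and 5 fell, with a median of -0.14. Without the set term 1 rose and 0 (4 unadjusted) fell. The rises and falls numbered 1 and 2 without PD1-low array 1 or 2, 2 and 4 without Venus-low array 2 and 2 and 3 without Venus-low array 3, and 1 rose with set 2 left out. The rises were Zbtb32, a zinc finger repressor (4.20 ± 0.47, at least 2.97-fold), Tbx21, the Th1 factor T-bet (3.19), Id2, an inhibitor of E proteins (1.03), and Gata3, the Th2 factor (0.49 ± 0.15). Zbtb32 read 5.08, 7.48 and 7.15 on Venus-low arrays against 2.42 and 3.07, and 2.23, 2.42 and 3.15 on Venus-high and 3.05 and 3.10 on PD1-intermediate arrays. Gata3 was not called without the set term (adjusted p = 0.206) nor without Venus-low array 2 (0.145) or 3 (0.153) or PD1-low array 1 (0.308) or 2 (0.0744). The falls were Klf2, which keeps naive T cells in circulation (-2.78 ± 0.77), Klf6 (-1.48 ± 0.22), and the forkhead factors Foxp1 (-0.87 ± 0.18), Foxo1 (-0.77) and Foxo3 (-0.37). Klf2 had an adjusted p of 0.0532 without the set term, 0.0596 and 0.125 without Venus-low arrays 1 and 3, and 0.105 and 0.161 without PD1-low arrays 1 and 2. Klf6 and Foxp1 were not called without the set term (adjusted p = 0.19 and 0.0573), and Foxp1 not without PD1-low array 2 (0.0726).

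Costimulators of the tumour necrosis factor family were among the surface genes that rose. Tnfsf14, the ligand LIGHT, read 10.76, 11.55 and 11.79 on Venus-low arrays and 4.71 and 6.44 on PD1-low arrays (6.11 ± 0.36, adjusted p = 6.93e-05). Tnfsf11, the ligand RANKL, rose by 4.27 ± 0.32 and Tnfsf8, the ligand of CD30, by 3.64 ± 0.46. Icos, which Tfh cells need, read 14.42, 14.36 and 14.72 against 12.47 and 13.72 and rose by 1.41 ± 0.23, and Cd40lg, the gene of CD40 ligand, rose by 1.35. Of 16 measured costimulators 9 rose and 1, Tnfrsf1a (-1.11), fell, with a median of 0.84, and without the set term 4 rose and 1 fell. Without PD1-low array 1 the rises numbered 6.

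Inhibitory receptors rose in 7 of 13 cases and fell in 2, with a median of 0.74, and 2 rose and 0 (2 unadjusted) fell without the set term. Lag3, which binds MHC class II, read 11.12, 10.44 and 12.10 against 3.21 and 5.59 and rose by 6.94 ± 0.34 (adjusted p = 4.51e-05). Cd160, a ligand of the herpesvirus entry mediator, read 11.01, 10.63 and 11.94 against 5.78 and 7.15 and rose by 4.89 ± 0.36 (adjusted p = 1.42e-04). Both kept their groups apart on every array. Nt5e, the enzyme CD73 that makes adenosine, rose by 2.31 ± 0.22. It differed by 1.97 without the set term and was not called (adjusted p = 0.134). Lair1, a collagen receptor, and Cd96 (-0.97) fell. The fall of Lair1 (-2.21 ± 0.53, at least 1.6-fold) was lost without the set term (0.0749) and without PD1-low array 1 (0.0711) or 2 (0.117), which left 1 fall in the list. Among 7 measured SLAM receptors and adaptors, which steady the contact of T and B cells, 3 rose and 0 (0 unadjusted) fell: Sh2d1a, the adaptor SAP (1.21 ± 0.12), Slamf6 (0.77 ± 0.12) and the kinase Fyn (0.75 ± 0.13). Of these 3, 0 were called without the set term and 2 had an unadjusted p under 0.05 (adjusted p = 0.354, 0.121 and 0.0821), and Fyn was not called without PD1-low array 1 (0.0587).

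Receptors of T zone position and tissue egress fell more often than they rose. Ccr7 read 8.31, 9.76 and 8.77 on Venus-low arrays and 13.07 and 13.41 on PD1-low arrays and fell by 4.13 ± 0.43 (adjusted p = 5.37e-04). S1pr1, the receptor that lets T cells leave the lymph node, read 3.96, 6.34 and 5.74 against 9.37 and 9.61 and fell by 3.72 ± 0.40 (adjusted p = 6.23e-04). Both genes kept the groups apart, and Venus-low array 2 had the highest Venus-low value of each. Gpr18, a G protein-coupled receptor, fell by 3.34 ± 0.34, also without overlap of its arrays. Of 15 receptors and regulators of position 8 fell and 3 rose (median -0.54), and 3 fell and 2 rose without the set term. The falls numbered 5 without Venus-low array 3 and 4 without PD1-low array 1 or 2. The rises were Gpr183, the oxysterol receptor EBI2 (1.23), the integrin gene Itgal (0.99) and Cxcr4 (0.53). On the Venus-high arrays Ccr7 read 3.46, 3.74 and 3.91, and on the PD1-intermediate arrays 10.82 and 11.91.

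Of 16 receptors for inflamed tissue on the array, 7 passed the filter on low values, and 1 of these, Ccr9, was displaced. The genes Ccr3, Ccr4, Ccr10, Cx3cr1, Cxcr2, Ackr3, Ackr2, Ccrl2 and Ltb4r1 did not pass it. Of the 6 measured, 4 were called higher in Venus-low Tfh, with unequal differences in the 2 sets. Cxcr6 read 11.47, 11.00 and 12.01 on Venus-low arrays and 3.27 and 7.48 on PD1-low arrays and rose by 6.21 ± 0.67. Cxcr3, a receptor of Th1 cells, read 12.08, 12.16 and 13.14 against 5.44 and 10.22 and rose by 4.97 ± 0.78, and Ccr6, a receptor of Th17 cells, read 11.45, 11.45 and 12.14 against 4.73 and 9.22 and rose by 4.94 ± 0.75. In all 3 genes PD1-low array 2 stood above PD1-low array 1 by more than 4 log2 units, while the 3 Venus-low arrays lay within about 1 unit of each other. The rise of Cxcr3 was 6.73 within set 2 and 2.91 within set 3, and that of Ccr6 6.72 and 2.91. The other rise was Ccr8 (3.55), while Ccr1 (0.07) and Ccr2 (1.54) did not pass, and 0 (0 unadjusted) fell (median 4.25). There were 3 rises without the set term.

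Cytokine receptors fell more often than they rose, 12 against 5 of 26, with a median of -0.57, and 5 against 3 without the set term. The receptors of interleukin 1 rose most. Il1r2, a decoy receptor that binds interleukin 1 without signalling, read 11.68, 11.19 and 12.64 against 2.12 and 3.13, at least 114-fold higher (9.35 ± 0.28, adjusted p = 5.72e-06). Il1r1, the signalling receptor, read 7.79, 9.45 and 11.02 against 2.40 and 2.47, at least 21.4-fold higher (7.71 ± 0.54, adjusted p = 1.33e-04). The Venus-low arrays spread over 3 log2 units in Il1r1 and over less than 2 in Il1r2, and no PD1-low array overlapped them. The other rises were Il18rap, a subunit of the interleukin 18 receptor (5.28 ± 0.67), Il12rb1 (2.06) and Il2rb (0.65). Acvrl1, a receptor of the BMP family, read 2.20, 2.39 and 2.21 against 8.31 and 9.62, at least 15.7-fold lower (-6.65 ± 0.34, adjusted p = 4.89e-05). Il7r, the interleukin 7 receptor that sustains resting T cells, read 10.86, 11.82 and 11.52 against 14.35 and 14.42 and fell by 2.89 ± 0.42 (adjusted p = 0.0021).

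Targets of interleukin 2 and STAT5 fell in 7 of 14 cases and rose in 0 (1 unadjusted; median -0.53), with 2 falls and 0 (0 unadjusted) rises without the set term. The falls numbered 1 without PD1-low array 2, 3 without Venus-low array 3 and 4 without PD1-low array 1. Socs2, a feedback inhibitor of cytokine signals, read 2.83, 5.95 and 5.60 on Venus-low arrays and 8.73 and 11.72 on PD1-low arrays, and its fall of 5.02 ± 1.05 was lost without PD1-low array 2 (adjusted p = 0.0773). Cish, another such inhibitor, fell by 2.28 ± 0.56 and Bcl2, a survival protein, by 1.54 ± 0.30. Neither was called without the set term (adjusted p = 0.0788 and 0.2), and Cish also not without Venus-low array 3 (0.0894) or PD1-low array 1 (0.089) or 2 (0.107). Bcl2 differed by -1.97 within set 2 and -1.17 within set 3, and was not called with set 2 left out (adjusted p = 0.0552). Osm, the gene of oncostatin M, fell by 2.12 ± 0.41 (at least 2.09-fold) and was not called without PD1-low array 2 (adjusted p = 0.0621).

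Genes of the other helper lineages were compared in the same way. All 7 measured Th17 genes rose (median 4.24), 6 of them also without the set term and 6 to 7 with 1 array left out. They were Il1r1, Ccr6, the scavenger receptor gene Cd163l1 (5.44 ± 0.42, at least 6.44-fold), Tmem176a (4.24 ± 0.30) and Tmem176b (3.67), the nuclear receptor gene Rora (3.63 ± 0.30) and Ahr, the aryl hydrocarbon receptor (3.23). Tmem176a read 11.32, 11.41 and 11.35 on Venus-low arrays and 7.30 and 7.33 on PD1-low arrays, with very little spread within each group. Il17f, a cytokine gene of Th17 cells, is not analysed here, and Il17a stayed below the filter. Th1 genes rose in 9 of 17 cases and fell in 2, Eomes (-3.07 ± 0.59, at least 2.47-fold; adjusted p = 0.0578 without the set term) and Ctsw (-3.39). Without the set term 4 rose and 1 fell, and 4 rose without PD1-low array 1, 5 without PD1-low array 2 and 4 with set 2 left out. The falls numbered 1 without PD1-low array 1. Nkg7, a gene of cytotoxic granules, read 7.57, 9.76 and 11.02 against 2.13 and 7.35, with PD1-low array 2 far above array 1. Its rise (5.12 ± 1.20) was not called without the set term (adjusted p = 0.0718), without Venus-low array 2 (0.0625) or 3 (0.0675) or without PD1-low array 1 (0.127), nor with set 2 left out (0.215). Th2 genes rose in 4 of 6 cases, Il4, Ccr8, Crlf2 (0.72) and Gata3, and Ecm1, a matrix protein, fell (-2.84 ± 0.33), with 1 rise and 1 fall without the set term.

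Regulatory T cell genes rose in 5 of 14 cases and fell in 3, with 0 (4 unadjusted) rises and 1 fall without the set term. Foxp3, the factor that defines these cells, read 11.16, 10.71 and 11.13 on Venus-low arrays, 11.52 and 12.34 on PD1-low arrays, 11.05 and 11.34 on PD1-intermediate arrays and 6.19, 5.73 and 6.07 on Venus-high arrays. Its transcript was thus high in both groups compared here, and their difference (-1.14 ± 0.33, adjusted p = 0.0319) was lost without the set term (0.38). It was also lost without Venus-low array 1 (0.0652) or 3 (0.109) and without PD1-low array 1 (0.128) or 2 (0.159). Penk, the gene of proenkephalin, rose by 5.52 ± 0.59 (adjusted p = 0.0525 without the set term), and Ebi3, a subunit of interleukins 27 and 35, by 4.40 ± 0.78 (0.177 without it, 0.0513 without PD1-low array 1). The other rises were Tnfrsf9 (1.96 ± 0.26; adjusted p = 0.0903 without the set term), Nrp1 (1.12) and Ikzf2 (0.98). Gpr83 fell by 4.01 ± 0.51 and was called without the set term (adjusted p = 0.00433), and Ikzf4 fell by 1.42. The rises numbered 3 without Venus-low array 2 and 2 without PD1-low array 1, and the falls 1 without Venus-low array 3 or PD1-low array 2.

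Genes of naive and quiescent T cells fell in 20 of 25 cases and rose in 0 (0 unadjusted), with a median of -1.48. Without the set term 10 fell and 0 (0 unadjusted) rose, and with 1 array left out 16 to 21 fell. Igfbp4, which encodes a binding protein of insulin-like growth factors, read 3.23, 5.78 and 3.62 on Venus-low arrays, 13.76 and 13.83 on PD1-low arrays and 14.31 and 14.36 on naive arrays. Its fall of 9.25 ± 1.02 (adjusted p = 7.17e-04) held on every array, with the highest Venus-low value on array 2. Treml2, a receptor of the TREM family, read 6.55, 7.28 and 7.43 against 11.79 and 12.27 and fell by 4.86 ± 0.35 (adjusted p = 1.42e-04). Dapl1 read 8.83, 9.95 and 8.65 against 14.43 and 14.87 and fell by 5.71 ± 1.17, but was not called without Venus-low array 3 (adjusted p = 0.0524) or PD1-low array 1 (0.0728) or 2 (0.0534). Ccr7, S1pr1, Il7r, Klf2 and Bach2, described above, belong to this list.

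**Figure D3:**
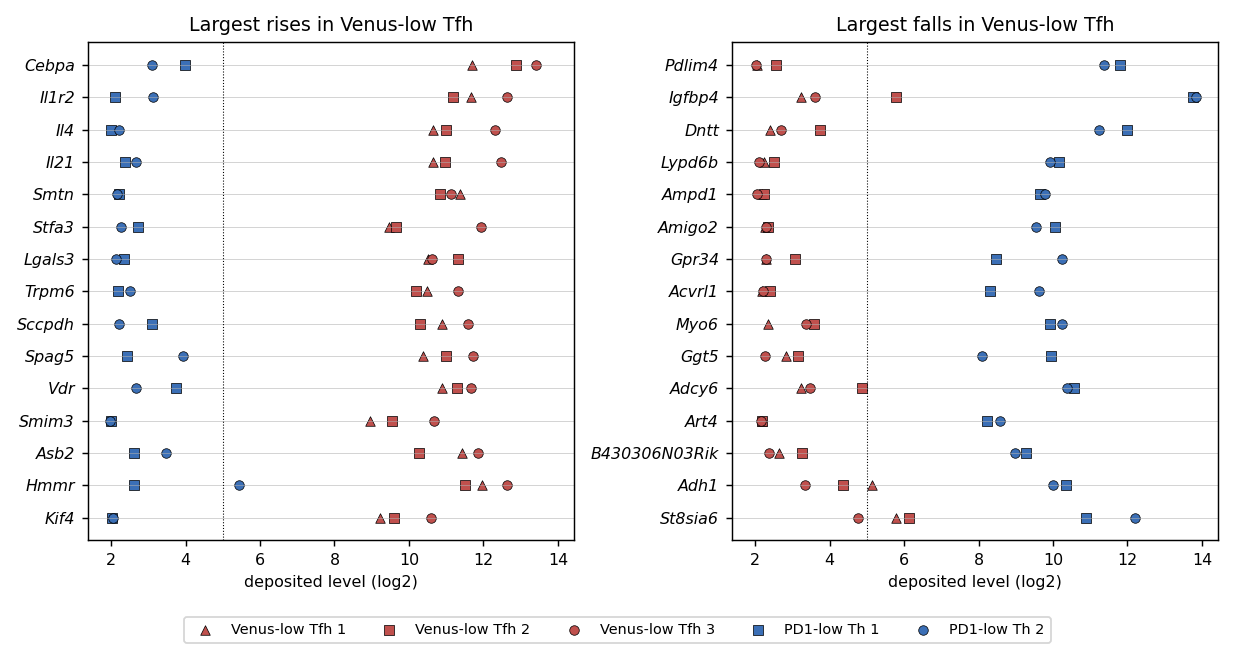
Deposited log2 levels of the genes with the 15 largest rises (left) and 15 largest falls (right) on the 3 Venus-low arrays in red and the 2 PD1-low arrays in blue; triangles, squares and circles stand for array sets 1, 2 and 3, and the dotted line marks the filter of log2 5. The Venus-low arrays lie between 8.96 and 13.40 for the rises and between 2.04 and 6.14 for the falls, and the groups overlap in none of these 30 genes, as the rule that chose them required (3050 of all genes tested, 30.8%, did not overlap).

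The 15 largest rises, 8.12 to 9.62 log2 units, went from PD1-low levels of 1.97 to 5.44 to Venus-low levels of 8.96 to 13.40, and all 15 were also called without the set term. Beside Cebpa, Il1r2, Il4 and Il21 they held the mitosis genes Spag5, Hmmr and Kif4. Smtn, the gene of the cytoskeletal protein smoothelin, read 11.38, 10.84 and 11.13 against 2.20 and 2.15 and was at least 69.3-fold higher (adjusted p = 5.81e-06). Trpm6, a magnesium channel with a kinase domain, read 10.49, 10.20 and 11.32 against 2.19 and 2.52 and was at least 50.9-fold higher. A second Trpm6 probe set, with a mean level of 6.08, lay higher by a mean of only 1.89 log2 units within sets 2 and 3. Vdr, the receptor of vitamin D, read 10.89, 11.29 and 11.66 against 3.74 and 2.66 and was at least 77.6-fold higher. By the chosen probe sets, none of the 3 genes reached log2 5 on a PD1-low array. Asb2, a substrate receptor of a ubiquitin ligase, was at least 72.3-fold higher, Sccpdh, an oxidoreductase-like gene, at least 60.3-fold and Smim3, a small membrane protein, at least 26.4-fold. Lgals3, the gene of galectin 3, read 10.52, 11.32 and 10.62 on Venus-low arrays against 2.34 and 2.14 on PD1-low and 2.86 and 3.22 on PD1-intermediate arrays. Its level was at least 56.5-fold higher than in PD1-low cells and, both groups being below log2 5, at least 56.5-fold higher than in PD1-intermediate cells (adjusted p = 0.00171). Stfa3, a stefin of a family with near-identical members whose probes may not separate them, read 9.47, 9.66 and 11.94 against 2.73 and 2.28, with the highest value on Venus-low array 3.

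The 15 largest falls, 6.01 to 9.38 log2 units in size, went from PD1-low levels of 8.08 to 13.83 to Venus-low levels of 2.04 to 6.14, and all were called without the set term. Pdlim4, a LIM domain protein of the actin cytoskeleton, read 2.05, 2.57 and 2.04 on Venus-low arrays and 11.79 and 11.38 on PD1-low arrays, at least 96-fold lower (-9.38 ± 0.20, adjusted p = 1.09e-06). Dntt, the terminal transferase that adds bases during receptor gene rearrangement, read 2.41, 3.75 and 2.71 against 11.99 and 11.24, at least 98.2-fold lower. On naive arrays Pdlim4 read 11.79 and 11.37, near its PD1-low values, and Dntt 10.31 and 10.25, below its own. Ampd1, an AMP deaminase, read 2.18, 2.23 and 2.04 against 9.65 and 9.77, and Amigo2, an adhesion protein, 2.25, 2.35 and 2.29 against 10.07 and 9.56. Both lay near the lowest values of the arrays in Venus-low Tfh, at least 26.2-fold and 28.1-fold lower. Gpr34, a receptor of lysophosphatidylserine, was at least 20.5-fold lower, Myo6, an actin motor, at least 34-fold and Adcy6, an adenylyl cyclase, at least 44.1-fold. Art4, an ADP-ribosyltransferase, read 2.17, 2.19 and 2.15 on Venus-low, 8.24 and 8.59 on PD1-low and 5.77 and 5.67 on naive arrays. Of these falls, Art4 was the gene in which PD1-low cells passed above naive cells (2.67 ± 0.13, adjusted p = 9.77e-04). The other falls were Lypd6b, Ggt5, Adh1, St8sia6 and B430306N03Rik.

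Mitosis genes rose almost throughout. Of 80 measured members, 77 rose and 1 fell, with a median of 5.53, and 65 rose and 0 (0 unadjusted) fell without the set term. With 1 array left out 74 to 77 rose, and with set 2 left out 76. Cdk1, the kinase that starts mitosis, read 11.23, 11.30 and 12.37 on Venus-low arrays and 3.01 and 5.56 on PD1-low arrays, a rise of 7.60 ± 0.53 (adjusted p = 1.34e-04). PD1-low array 2 lay above PD1-low array 1 and both lay more than 5 log2 units below the Venus-low arrays. Hmmr, a protein of spindle assembly, read 11.97, 11.51 and 12.64 against 2.62 and 5.44 and rose by 8.13 ± 0.56. Kif4, a kinesin of chromosome arms, read 9.23, 9.60 and 10.59 against 2.03 and 2.06 and was at least 28-fold higher. Nuf2, a kinetochore subunit, and Pbk, a mitotic kinase, were at least 73.7-fold and 46.4-fold higher. Rises of at least 5 log2 units numbered 53 of the 80. The exception was Smc4, a condensin subunit, which read 13.40, 13.48 and 13.94 against 13.83 and 14.36 and differed by -0.39 ± 0.10 with overlapping arrays. Its call was lost without the set term (adjusted p = 0.424), without Venus-low array 3 (0.0971) and without PD1-low array 1 (0.12) or 2 (0.0846), and with set 2 left out (0.0555).

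The promoters of 3 of these genes are shown because cell cycle genes of this kind are known for CCAAT boxes, bound by NF-Y, and for the element TTTGAA, bound by the MuvB complex. The sequences are from RefSeq on GRCm38.p6, each 250 bases before and 30 after the start of transcription. Capitals mark CCAAT and TTTGAA on either strand.
Cdk1 (chr10:69352883-69353162, minus strand): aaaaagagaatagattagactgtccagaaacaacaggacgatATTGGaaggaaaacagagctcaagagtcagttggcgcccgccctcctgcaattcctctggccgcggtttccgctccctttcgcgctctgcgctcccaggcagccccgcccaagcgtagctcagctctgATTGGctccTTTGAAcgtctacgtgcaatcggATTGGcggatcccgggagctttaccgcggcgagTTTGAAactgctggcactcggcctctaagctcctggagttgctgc
Hmmr (chr11:40733408-40733687, minus strand): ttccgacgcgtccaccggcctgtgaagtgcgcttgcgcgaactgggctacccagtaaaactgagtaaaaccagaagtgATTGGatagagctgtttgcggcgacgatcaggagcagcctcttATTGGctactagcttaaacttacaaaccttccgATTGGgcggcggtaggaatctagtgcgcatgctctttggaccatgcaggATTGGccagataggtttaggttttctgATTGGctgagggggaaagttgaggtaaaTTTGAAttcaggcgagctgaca
Kif4 (chrX:100625815-100626094, plus strand): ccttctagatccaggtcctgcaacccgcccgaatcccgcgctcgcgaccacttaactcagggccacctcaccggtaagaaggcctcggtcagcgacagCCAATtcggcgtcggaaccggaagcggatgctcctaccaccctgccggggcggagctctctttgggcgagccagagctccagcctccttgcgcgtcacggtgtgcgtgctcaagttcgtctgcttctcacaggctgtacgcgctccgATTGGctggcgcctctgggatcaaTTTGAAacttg
The Cdk1 stretch held CCAAT 3 times and TTTGAA 2 times, that of Hmmr 5 times and 1 time, and that of Kif4 2 times and 1 time. RefSeq promoters were matched for 70 of the 86 listed mitosis genes and 51 of the 62 DNA replication genes. In windows of 300 bases, CCAAT stood in 72.7% of 77 mitosis promoters, 59.7% of 62 replication promoters and 37.4% of all 32851 promoters. TTTGAA stood in 62.3%, 19.4% and 17.9%, and both in 50.6%, 11.3% and 6.95%. Both strands were searched, and the motifs can overlap by 1 base at their ends. A match of letters is a description of these windows and no measured site.

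DNA replication genes rose in 52 of 58 cases and fell in 0 (0 unadjusted), with a median of 1.79, and 31 rose and 0 (0 unadjusted) fell without the set term. With 1 array left out 38 to 50 rose. Gins2, a subunit of the replicative helicase, read 8.99, 10.37 and 10.86 on Venus-low arrays and 3.16 and 4.47 on PD1-low arrays, at least 33.6-fold higher (6.86 ± 0.60, adjusted p = 2.78e-04). Cdc6, which loads the helicase, read 10.20, 10.49 and 11.29 against 3.03 and 5.59 and rose by 6.83 ± 0.66. The groups stayed apart in both genes, with Venus-low array 1 the lowest of its group. Clspn, a checkpoint mediator at the fork, rose by 6.70 ± 0.53 and Rad51ap1, a helper of recombination, was at least 14.8-fold higher. Rises of at least 5 log2 units numbered 8 of 58 here. Of 15 measured cell cycle inhibitors 2 rose and 1, Cdkn2d (-0.70), fell, with a median of 0.03, and 2 fell without Venus-low array 1 or 2. Cdkn1a, the inhibitor p21, read 6.47, 6.34 and 8.54 against 2.44 and 2.47 and was at least 4.33-fold higher. Cdkn2c, the inhibitor p18, rose by 3.85 ± 0.70 and was not called without the set term (adjusted p = 0.0939) or without PD1-low array 1 (0.0513).

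**Figure D4:**
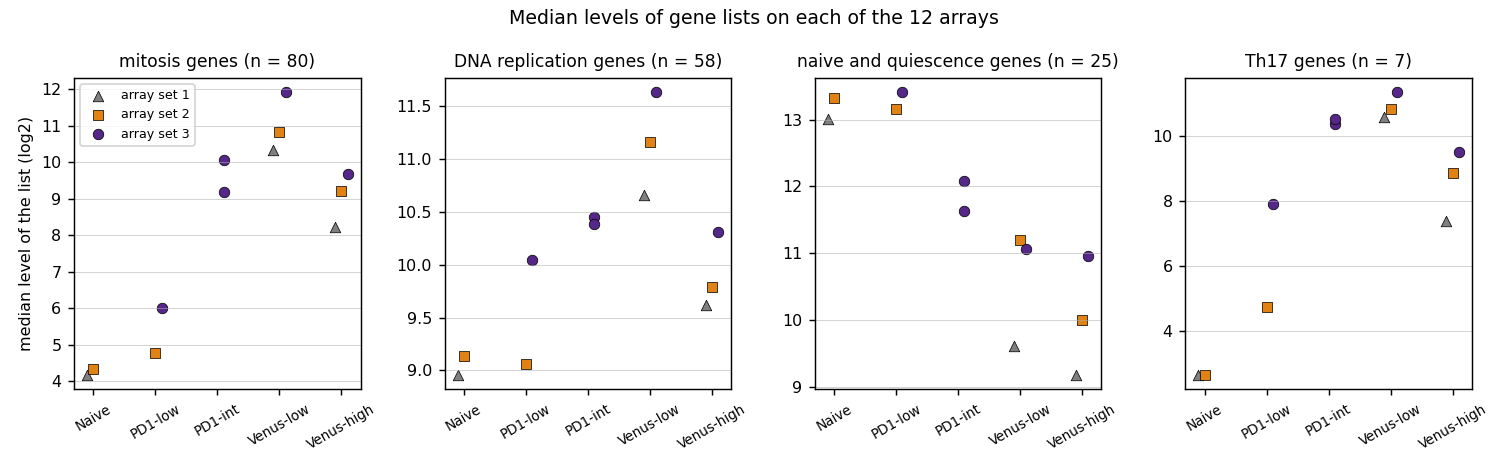
Median log2 level of 4 gene lists on each array, by group on the x axis, with the array set as colour and shape; y axes differ between panels and do not start at 0. The mitosis median lies at 10.34, 10.82 and 11.93 on the Venus-low arrays and at 4.79 and 6.00 on the PD1-low arrays, and the naive and quiescence median at 9.61, 11.19 and 11.06 against 13.15 and 13.42.

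Across all 5 groups, the median level of the mitosis genes was 4.17 and 4.33 on the naive arrays, 4.79 and 6.00 on the PD1-low arrays and 10.06 and 9.18 on the PD1-intermediate arrays. It was 10.34, 10.82 and 11.93 on the Venus-low arrays and 8.24, 9.22 and 9.67 on the Venus-high arrays. Within each of the 3 array sets the Venus-low array stood above all other arrays of its set. The PD1-low and naive arrays of set 2 read 4.79 and 4.33, and PD1-low array 2, of set 3, lay above array 1. Between PD1-low and naive cells 43 genes were called higher (0.435%) and 13 lower (0.131%), with set 2 the one set that held both. Igfbp4, Ccr7 and Il7r differed there by -1.05 ± 1.19, -0.27 ± 0.49 and -0.38 ± 0.48 without passing, while Cxcr5 exceeded its naive level at least 1.95-fold (adjusted p = 0.0421) and Foxp3 was higher by 2.89 ± 0.38 log2 units (adjusted p = 0.0353). Between Venus-low and PD1-intermediate cells 393 genes were called higher (3.97%) and 238 lower (2.41%). In Venus-low cells Ascl2 exceeded its PD1-intermediate level at least 19.6-fold (adjusted p = 0.00807) and Vdr was higher by 3.69 ± 0.31 log2 units (adjusted p = 0.0078), whereas Il21 differed by 0.87 ± 0.39 (adjusted p = 0.246) and Bcl6 by 0.23 ± 0.20 (adjusted p = 0.551). Acvrl1 read 8.07 and 8.60 on PD1-intermediate arrays, near its PD1-low values, and was at least 10.1-fold lower in Venus-low cells (adjusted p = 0.00269).

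Glycolysis genes rose in 16 of 23 cases and fell in 3, with a median of 0.73, and 6 rose and 2 fell without the set term. Aldoc, an aldolase, read 6.53, 8.59 and 9.71 on Venus-low arrays and 3.48 and 3.09 on PD1-low arrays, at least 9.69-fold higher (5.63 ± 0.63, adjusted p = 7.67e-04). Slc16a3, a lactate exporter, rose by 4.36 ± 0.69, and Tpi1, triosephosphate isomerase, read 13.80, 12.95 and 13.80 against 10.69 and 11.05 and rose by 2.62 ± 0.23. Hk2, a hexokinase, rose by 3.71 ± 0.42, with an adjusted p of 0.0579 without the set term. The falls were Ldhb (-0.58), Pdk1 (-1.65) and Eno3 (-1.70). Respiratory chain genes rose in 14 of 46 cases and fell in 0 (0 unadjusted), with a median of 0.20, and without the set term 0 (2 unadjusted) rose and 0 (0 unadjusted) fell. Their rises numbered 6 without Venus-low array 3, 5 without PD1-low array 1, 8 without PD1-low array 2 and 6 with set 2 left out. Of 24 genes of cholesterol synthesis and uptake 6 (25%) rose, against 21.2% of all genes, and 1, the exporter gene Abca1 (-2.26 ± 0.55), fell. Without the set term there were 1 rise and 0 (2 unadjusted) falls, and without PD1-low array 1 there were 2 rises. Abca1 was not called without Venus-low array 3 (adjusted p = 0.0713) or PD1-low array 1 (0.152) or 2 (0.0527).

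Genes of protein folding and secretion in the endoplasmic reticulum rose in 12 of 23 cases and fell in 2, Ddit3 (-0.81) and Trib3 (-1.39 ± 0.38). The median was 0.47, and without the set term 2 rose and 0 (1 unadjusted) fell. Without PD1-low array 1 the rises numbered 5, and 1 fell without that array or Venus-low array 1 or 2. Trib3 was not called without the set term (adjusted p = 0.336), without Venus-low array 1 (0.0616) or 2 (0.1) or without PD1-low array 1 (0.247). Atf6, a sensor of unfolded protein, read 9.61, 10.33 and 11.13 against 6.64 and 8.39 and rose by 3.29 ± 0.32 (adjusted p = 4.22e-04). Asns, asparagine synthetase, rose by 4.20 ± 0.80 and was not called without PD1-low array 1 (adjusted p = 0.0524). Of 11 heat shock genes 2 (18.2%) were called higher, Bag3 (1.11) and Hspd1 (0.41), against 21.2% of all genes. Falls numbered 0 (1 unadjusted), and without the set term there were 0 (0 unadjusted) calls. Only 1 rise remained without Venus-low array 3 or either PD1-low array.

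Interferon response genes fell in 9 of 30 cases and rose in 4, with a median of -0.38, and 3 fell and 1 rose without the set term. Oas2, an antiviral synthetase, read 2.18, 5.33 and 5.86 on Venus-low arrays and 9.59 and 10.08 on PD1-low arrays and fell by 4.66 ± 0.48 (adjusted p = 5.37e-04). Gbp2, a guanylate-binding protein, fell by 1.46 ± 0.20. Oas1a, a synthetase of the same family as Oas2, read 11.75, 11.32 and 12.09 against 9.82 and 10.78 and rose by 1.37 ± 0.20, so the 2 genes went opposite ways. The other rises were Mx1 (1.10), Rsad2 (0.75) and Isg20 (0.75), and without PD1-low array 1 the rises numbered 1. Of 31 T cell receptor response genes 8 rose and 8 fell, 25.8% each, against 21.2% and 17.5% of all genes. The median was 0.05, and 2 rose and 2 fell without the set term. Rgs16, a regulator of G protein signals, read 9.12, 8.72 and 8.82 against 5.06 and 3.61 and rose by 4.51 ± 0.55 (adjusted p = 0.00107). Ier2, an immediate early gene, read 6.80, 7.94 and 7.88 against 9.97 and 9.66 and fell by 1.91 ± 0.22 (adjusted p = 7.68e-04). The falls of this list numbered 5 without PD1-low array 1.

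Of 17 apoptosis regulators 4 (23.5%) rose and 6 (35.3%) fell, against 21.2% and 17.5% of all genes, with a median of -0.08. Without the set term there were 0 (2 unadjusted) rises and 0 (3 unadjusted) falls, and without PD1-low array 1 there was 1 fall. The rises were the BH3-only genes Pmaip1 (3.94), Bik (2.16 ± 0.25, adjusted p = 0.0709 without the set term) and Bad (0.71) and the effector Bak1 (0.90). Another BH3-only gene, Bcl2l11, fell (-1.50 ± 0.43). The other falls were Bcl2 (-1.54 ± 0.30), Birc3 (-0.82), Cflar (-0.67), Birc2 (-0.46) and Mcl1 (-0.39). Among 21 integrins and adhesion genes 5 rose and 5 fell, 23.8% each, against 21.2% and 17.5% of all genes. The median was 0.22, and without the set term 4 rose and 3 fell. Sdc1, the gene of the heparan sulfate proteoglycan CD138, read 8.23, 7.69 and 8.76 on Venus-low arrays and 2.53 and 3.39 on PD1-low arrays, at least 9.38-fold higher (5.34 ± 0.24, adjusted p = 3.12e-05). Itgb1, the integrin beta 1 chain, rose by 3.65 ± 0.44 and Alcam, an adhesion molecule of activated leukocytes, by 3.65 ± 0.80, which was not called without PD1-low array 1 (adjusted p = 0.122). The other rises were Cd44 and Itgal. Itgb3, the integrin beta 3 chain, read 8.20, 9.22 and 8.40 against 12.39 and 12.33 and fell by 3.46 ± 0.55, which was not called with set 2 left out (adjusted p = 0.0659). The other falls were Itga5 (-2.62), Itga6 (-2.03), Icam2 (-0.76) and Itgb7 (-0.52).

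A list of guidance genes held mainly semaphorins, plexins, ephrins and their receptors. Cd72, Nrp1 and Robo1 were in the list too, and Cd72 is also counted among the B cell genes. Of its 15 measured members 5 rose and 3 fell, Cd72 (-3.23 ± 0.41), Sema4a (-2.42 ± 0.32) and Ephb6 (-0.67), with a median of 0.01. Without the set term 1 rose and 2 fell, and the rises numbered 2 without PD1-low array 1 and 3 without Venus-low array 3, without PD1-low array 2 or with set 2 left out. Plxnc1 rose by 1.92 ± 0.26 (adjusted p = 0.00158), and the other rises were Plxnd1, Plxnb1 (1.46), Nrp1 (1.12) and Sema4f (0.56). Plxnd1 (2.03 ± 0.42, at least 1.03-fold) was not called without the set term (adjusted p = 0.314) nor without Venus-low array 3 (0.0524), PD1-low array 1 (0.0658) or PD1-low array 2 (0.0628). Of 9 regulators of G protein signalling, Rgs16 and Rgs3 (1.78 ± 0.13) rose, while Rgs11 (-4.63 ± 0.50, at least 4.01-fold), Rgs14 (-1.28 ± 0.12) and Rgs19 (-0.48) fell.

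**Figure D5:**
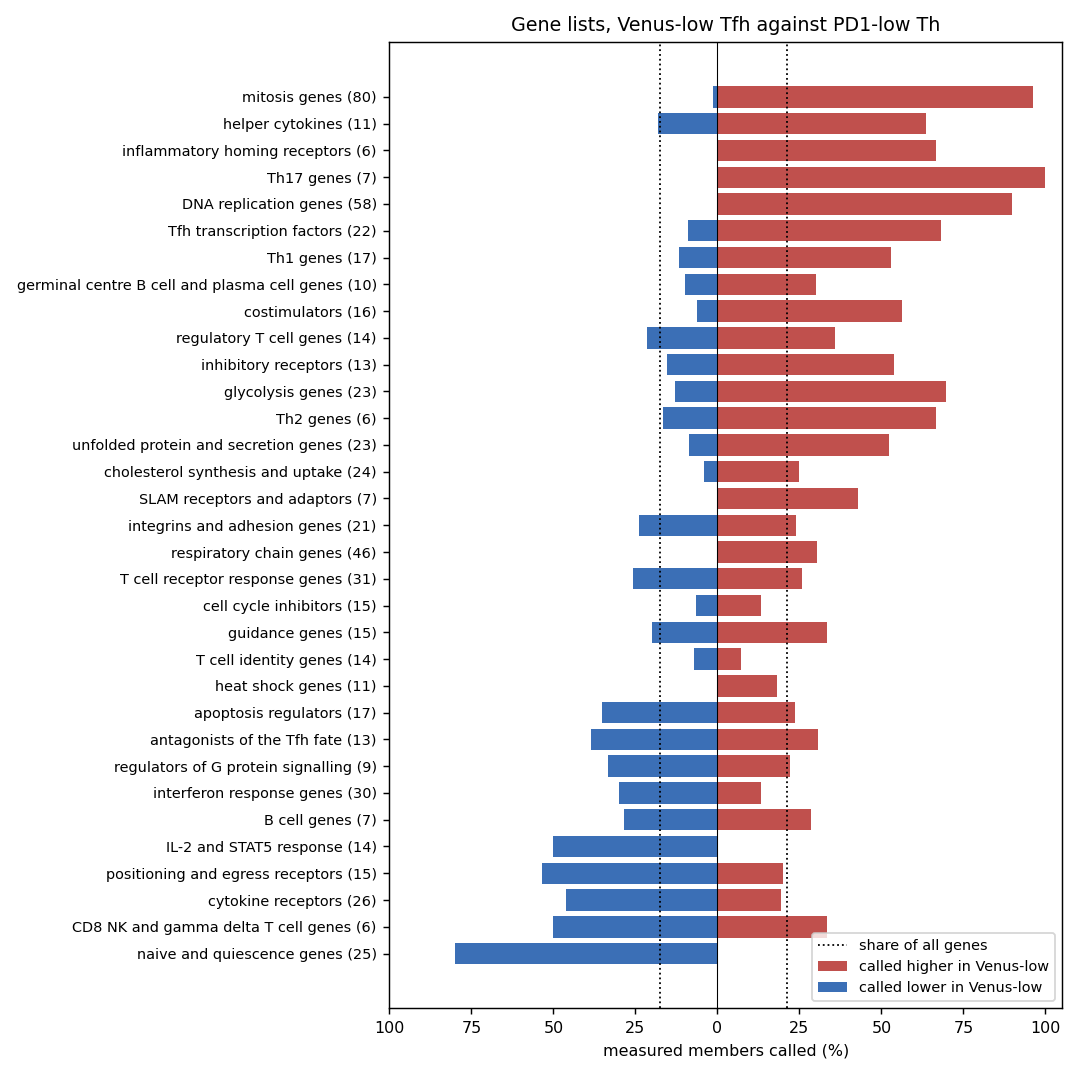
Share of the measured members of each gene list called higher (right, red) or lower (left, blue) in Venus-low Tfh, in percent, with the number of measured members in parentheses and lists ordered by median difference. Dotted lines mark the shares of all genes not measured by a displaced probe set, 21.2% higher and 17.5% lower, and the B cell genes called lower include Ighm, which lay higher on most of its probe sets; mitosis, DNA replication and Th17 genes extend furthest to the right and naive and quiescence genes furthest to the left.

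Markers of other cells were examined on all arrays. The B cell genes Ms4a1 and Cd79a, the CD8 gene Cd8a, the NK cell gene Ncr1 and the myeloid genes Lyz2, Csf1r, Itgam and Itgax stayed below log2 5 on every array. Cd79b read 2.61, 5.90 and 6.64 on Venus-low arrays and 5.83 and 8.99 on PD1-low arrays, the highest on PD1-low array 2, and did not pass (-1.70 ± 0.79, adjusted p = 0.136). Cd8b1 read 2.55, 4.03 and 3.96 against 6.35 and 6.62 and fell (-2.54). The summed linear signal of the 4 B cell markers, of which Pax5 was displaced in set 2, was 22.0 to 133 on Venus-low and 120 to 523 on PD1-low arrays, and that of the 2 CD8 markers 10.8 to 21.2 and 86.4 to 106. That of the 4 myeloid markers was 18.6 to 19.4 and 18.5 to 19.1. Klrd1, a receptor of NK cells and memory T cells, read 3.66, 4.99 and 5.93 on Venus-low arrays against 10.80 and 11.50 and fell by 5.96 ± 0.48 (adjusted p = 1.96e-04), with 9.45 and 9.73 on naive arrays. Of 7 measured B cell genes, Cd22 and Cd74 (2.09) rose and Cd72 (-3.23) fell. Ighm was called lower by the chosen probe set and counts as lower in the share of this list. However, 6 of its 7 probe sets lay higher in Venus-low Tfh, so beyond that count it is read in neither direction. The calls of this list numbered 1 higher and 1 lower without the set term and without PD1-low array 1, and those lower were 1 without Venus-low array 1 or PD1-low array 2 and 3 without Venus-low array 3. Of 10 measured genes of germinal centre B cells and plasma cells, Jchain, Sdc1 (5.34) and Elk3 (0.98) rose and Basp1 (-1.82) fell. By limma 1 rose and 0 (0 unadjusted) fell without the set term, and 2 rose without Venus-low array 3 or PD1-low array 1. Of 6 measured genes of CD8, NK and gamma delta T cells 2 rose, Klrc1 (3.88 ± 0.64) and Cd160 (4.89). In this list 3 fell, Klrd1, Cd8b1 and Eomes (-3.07), and without the set term 2 rose and 2 fell. Of 3 measured myeloid genes 1 rose, and all 7 red cell and platelet genes on the array stayed below log2 5. Of 14 measured T cell identity genes, which include the gate gene Cd4, Cd28 (0.68) rose and Bcl11b (-0.95) fell. By limma without the set term 0 (0 unadjusted) rose and 0 (0 unadjusted) fell. The fall was lost without Venus-low array 1, 2 or 3 or PD1-low array 1, and the rise without PD1-low array 1. Cd22, an inhibitory receptor of B cells, read 12.28, 10.60 and 11.66 against 3.77 and 4.19, at least 91.5-fold higher (7.39 ± 0.51, adjusted p = 1.28e-04), with 13.01, 12.14 and 12.38 on Venus-high arrays. Cd68, a lysosomal protein of macrophages, rose by 3.25 ± 0.37. Jchain, the joining chain of antibodies, read 4.42, 4.98 and 8.33 on Venus-low arrays, with array 3 apart, and its rise (2.92 ± 0.89, at least 1.88-fold) was lost without the set term (adjusted p = 0.436). It was also lost without Venus-low array 1 (0.0761) or 3 (0.181) or PD1-low array 1 (0.104) or 2 (0.222). The part of other cells in the falls of Klrd1 and Cd8b1, in the rises of Cd22, Cd68, Cd74, Jchain and Sdc1 and in the high values of PD1-low array 2 for Nkg7, Cxcr3 and Ccr6 was not tested.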

How the data were processed

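Sorted CD4 T cells were measured on 12 expression arrays of 45101 probe sets. The values are log2 signals that the authors had normalized with GCRMA, per the submitters' processing notes. The version is not given in the sources used here. GCRMA models background and equalizes arrays, so low values are compressed near log2 2 and depth has no meaning, while the number of arrays limits precision. Probe sets with 1 symbol (34958, against 932 with several and 9211 with none) were used, 1 per gene by the highest mean, if log2 5 was reached on 2 arrays. limma 3.58.1 in R 4.3.3 fitted all 12 arrays with group and array set, with 5 residual degrees of freedom, Benjamini-Hochberg adjustment over 9893 genes and a threshold of 0.05. The fit was run on simulated data drawn from its own model, which cannot show whether the set term suits these arrays. The array sets came from clustering the arrays' quantiles. Where a group read below log2 5 on every array, "at least" folds take 5 as its level. Each array is a pool of mice, and nothing says how the pools relate, so p-values measure the spread between these arrays.

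Named genes were the 15 largest rises and 15 largest falls and up to 4 members per list by size of difference, all called, not overlapping between groups, of 1 sign within both sets and not displaced, and the fixed gate and marker genes. Il7r, Maf, Bach2, Rora, Batf, Cd79b, Smc4 and the members that complete short counts were chosen after their values were seen. The members and lists were chosen with earlier results of these data known. Alternatives left out the set term or single arrays, or changed the filter, the normalization, the probe set rule or the variance model. Figures used matplotlib 3.10.9.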

Additional observations from a re-analysis of the deposited data

How the results depend on the processing

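Counts of called genes depended on how the array sets were treated. Against 2002 higher and 1667 lower calls, the fit without the set term made 603 and 390 and the fit with the number of mice pooled in its place 627 and 453. The 5 arrays alone gave 916 and 596 with the set term and 260 and 119 without it, and the 4 arrays of the sets that hold both groups gave 916 and 596 by construction. A difference of at least 1 log2 unit left 1163 and 714. With 1 array left out, higher calls ranged from 1223 to 1877 and lower calls from 877 to 1443. The cause was not tested, beside the fewer arrays in some fits. The replicate numbers were not taken to pair the samples, since the labels tie them to nothing shared. Deviations of the 2 PD1-low arrays from their mean mirror each other, so only 3 correlations are free, those of Venus-low arrays 1, 2 and 3 with PD1-low array 1 (-0.396, 0.86 and -0.793), and they do not settle the pairing. The replicate block in place of the set gave 747 higher and 1613 lower calls, and beside the set 491 and 170. Of the 140 named genes, 100 kept direction and call without the set term and 117 to 134 with 1 array left out. Ighm was called lower by the chosen probe set, as counted in the share of B cell genes, and reversed to 2.19 under the mean of its probe sets. Beyond that count it is read in neither direction. Differences of genes near log2 5 or below are limited by the signal over background.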
